A study of Homo sapiens with 16 samples.

Results

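The footprint response to rocaglamide A (RocA) in the lung cancer lines NCI-H1650 and NCI-H520 was set against the response in the melanoma lines Hs 936.T and A375. All 16 of the 16 libraries of the study entered the comparison, 8 from lung and 8 from melanoma, with each library assigned to its line by its title. The lines are established human cancer cell lines, and the labels give all of them as wild type (WT) in genetic background. Each line had 2 DMSO libraries, 1 library with RocA at 0.3 µM and 1 at 3 µM, each after 30 min, so a tissue was represented by 2 lines and 4 treated libraries. Each treated value of a line and dose therefore has no replicate of its own. A pair of the NCI-H520 libraries, DMSO replicate 2 and 3 µM, carries the cell-line label NCI-H521 and was grouped by title.

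RocA is a plant-derived inhibitor of translation initiation. It locks the RNA helicase eIF4A, which unwinds the 5′ leader of mRNAs ahead of the scanning ribosome, onto stretches of purines, and the title of the study names the helicase DDX3 as another target. Ribosome profiling counts mRNA fragments protected by ribosomes, so a gene's count follows the ribosomes on its mRNA, which depends on both the amount of mRNA and its translation. The question put to the data was which genes answered RocA differently in the lung and the melanoma lines.

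Counts on the 17244 genes that could be named totalled 871137 to 4955357 with DMSO and 75683 to 873897 with RocA, the latter 8.62% to 41.2% of the mean of the line's own DMSO libraries. NCI-H1650 at 3 µM was the smallest. Since scaling was within libraries, a change is always relative to the remaining genes of the library concerned. Epithelial genes summed to 19900 and 20880 CPM (counts scaled to the depth of the library) in the NCI-H1650 DMSO libraries and to 5400 and 5378 in NCI-H520, against 68.5 to 394 in the melanoma DMSO libraries. Over 12 pigment genes chosen to be read in Hs 936.T at 50 CPM or more and in A375 at no more than 2% of that level, NCI-H520 stood at a median of 3.75% and 8.30% of the Hs 936.T level in DMSO replicates 1 and 2, and at 0.787% and 1.96% with RocA. NCI-H1650 reached at most 0.503%, and A375 is low by this choice of genes. For each gene, the mean of the DMSO percentages (6.03%) times its Hs 936.T level was expressed as a share of its NCI-H520 DMSO level, called its carried share below, and is given beside the genes it touches.

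Most of the response was shared by the lung and melanoma lines, and 82 genes answered differently. Of 6019 genes with enough counts to be tested, 17 responded more positively in lung (0.282% of the genes tested) and 65 more negatively (1.08%), at an adjusted p under 0.05 (edgeR's quasi-likelihood test with Benjamini-Hochberg adjustment). Both directions together made up 1.36%. With a separate RocA term for each line, 88 genes were called (1.46%), 18 higher (0.299%) and 70 lower (1.16%). At an unadjusted p under 0.05 there were 310 and 551 genes. The response itself was called for 61.9% of genes in lung (1743 higher, 29%, and 1981 lower, 32.9%) and for 69% in melanoma (2015 higher, 33.5%, and 2140 lower, 35.6%). Of 3216 genes called in both tissues, 3203 (99.6%) had the same sign. Across genes, the fitted lung and melanoma responses had a Pearson correlation of 0.87 and a Spearman correlation of 0.90, given as a description, since genes share their libraries and are not replicates. The lung responses were more spread, with an SD across genes of 1.20 on the log2 scale against 0.99 in melanoma. The 4 lung changes lay all above or all below the 4 melanoma changes for 52 of the 82 genes, 9 above and 43 below, where 5.67% of all genes tested did so (1.98% above and 3.69% below).

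The difference took several forms. Of the 65 genes lower in lung, 17 fell in both tissues, 19 fell in lung and were not called in melanoma, 16 rose in melanoma and were not called in lung, 6 rose in both and 7 fell in lung while they rose in melanoma. Of the 17 higher in lung, 5 rose in both, 4 rose in lung alone, 5 fell in melanoma alone and 3 rose in lung while they fell in melanoma. Here "alone" means that the response of the other tissue was not called, and not that it was shown to be absent. The median difference was 0.85 on the log2 scale among the genes higher in lung, -1.29 among those lower, and -0.05 over all genes. A difference of 2-fold or more was called for 5 genes higher and 51 lower.

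These calls depended on the libraries used. Each of 40 named genes with a call was refitted with each of the 16 libraries left out in turn: 10 kept the call in all 16 fits, 5 in 15, 10 in 10 to 14 and 15 in 9 or fewer. NCI-H1650 at 0.3 µM ended the most of these calls, 29, while A375 at 0.3 µM ended none and left 211 genes called when it was omitted. Without NCI-H520, 15 of the 82 genes were still called, 36 without NCI-H1650, 32 without Hs 936.T and 68 without A375. With every library thinned to 64291 counts, the size of the smallest, 4 of the 82 were called and 77 had the same sign. With 2 lines against 2, an exact permutation test over lines cannot go below p = 0.333, and no label says that the libraries came from separate cultures, so the p-values measure the spread between these samples, which may be technical.

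**Figure D1:**
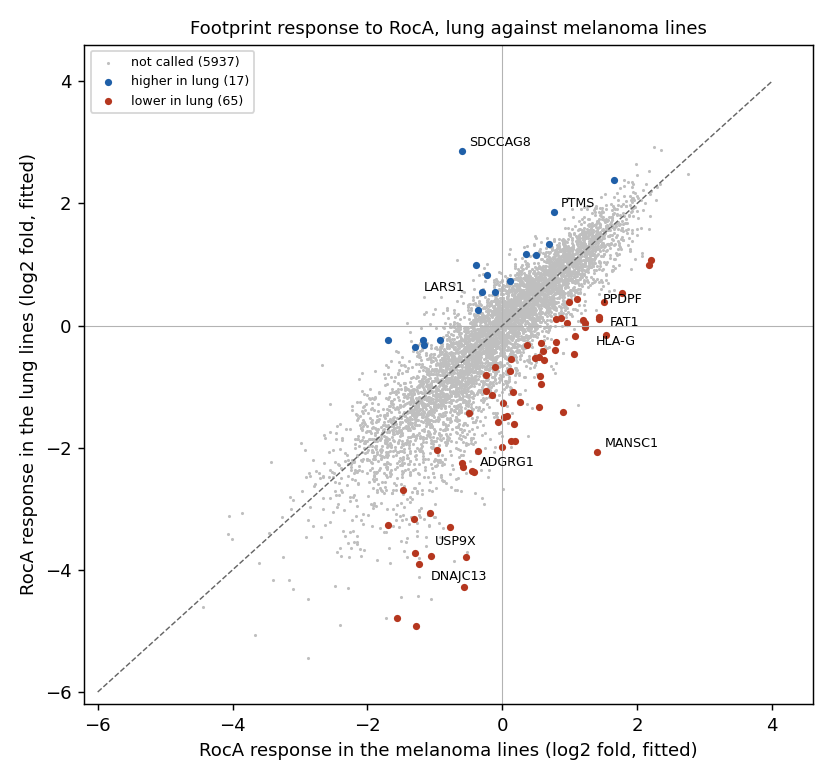
Fitted log2 response to RocA of 6019 genes, averaged over both doses, in the lung lines (vertical axis) against the melanoma lines (horizontal axis). The dashed line marks equal responses, blue points the 17 genes called higher in lung, red points the 65 called lower, and 9 genes lie outside the plotted range. SDCCAG8 lies above the line, at 2.85 in lung and -0.60 in melanoma, and MANSC1 below it, at -2.08 and 1.41.

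SDCCAG8, a centrosomal protein needed for primary cilia, had the largest positive difference and rose in lung while it fell in melanoma. In NCI-H520 it went from 49.4 and 40.0 CPM with DMSO to 233 CPM at 0.3 µM and 494 CPM at 3 µM. In NCI-H1650 the values were 16.2 and 10.8 CPM with DMSO, then 67.3 and 40.2 CPM. Hs 936.T went from 32.0 and 26.4 CPM to 21.3 and 24.4 CPM, and A375 from 34.5 and 27.0 CPM to 12 and 18.6 CPM. All treated lung libraries were above their DMSO libraries and all treated melanoma libraries below, with no overlap between the changes of the tissues. The difference was 3.46 ± 0.31 (SE) on the log2 scale, 11-fold (adjusted p = 2.7e-10, edgeR's quasi-likelihood test, Benjamini-Hochberg adjustment). It ran from 2.92 to 3.76 when single libraries were left out. The gene lies at chr1:243256056-243500092 on the plus strand (hg38, GENCODE 29).

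LARS1, the cytosolic leucyl-tRNA synthetase (chr5:146113038-146182660, minus strand), showed the same opposition at a smaller size. NCI-H1650 read 124 and 117 CPM with DMSO and 181 and 147 CPM at 0.3 and 3 µM, and NCI-H520 read 240 and 261 CPM, then 389 and 354 CPM. Hs 936.T read 333 and 323 CPM, then 267 and 244 CPM, and A375 247 and 271 CPM, then 204 and 237 CPM. Each lung line was higher with RocA than in either of its DMSO libraries, and each melanoma line lower. The difference was 0.85 ± 0.16 (adjusted p = 0.0028, edgeR's quasi-likelihood test, Benjamini-Hochberg adjustment) and was called in all 16 fits that left out a library, though not without NCI-H520.

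MANSC1, which encodes a single-pass membrane protein with a MANSC domain, was the reverse case (chr12:12326056-12350541, minus strand). In NCI-H1650 it went from 23.2 and 18 CPM to 5.18 CPM at 0.3 µM and 13.4 CPM at 3 µM, and in NCI-H520 from 30.3 and 24.2 CPM to 3.47 and 6.50 CPM. In Hs 936.T it went from 13 and 12.9 CPM to 32.7 and 51.5 CPM, and in A375 from 41.1 and 48.5 CPM to 108 and 117 CPM. The treated lung libraries were all below DMSO and the treated melanoma libraries all above, without overlap. The difference was -3.48 ± 0.51 (adjusted p = 4.8e-05, edgeR's quasi-likelihood test with Benjamini-Hochberg adjustment). It was not called without NCI-H520 or with libraries thinned to the smallest. The lung side rests on 5 counts over the 4 treated libraries against 88 over the 4 DMSO libraries, a treated level of 24.1% of DMSO after scaling for depth, with an exact 95% interval of 7.64% to 58.4% that covers counting error only.

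USP9X, an X-linked deubiquitinase (chrX:41085635-41236579, plus strand), fell in both tissues, and further in lung. NCI-H1650 went from 222 and 152 CPM to 10.4 CPM at 0.3 µM and 13.4 CPM at 3 µM, and NCI-H520 from 98.8 and 102 CPM to 3.47 and 13 CPM. Hs 936.T went from 168 and 197 CPM to 96.7 and 84.0 CPM, and A375 from 79.2 and 93.6 CPM to 31.1 and 42.6 CPM. The lung response was -3.77 ± 0.36 and the melanoma response -1.06 ± 0.16, a difference of -2.71 ± 0.46 (adjusted p = 0.00052, edgeR's quasi-likelihood test with Benjamini-Hochberg adjustment). The 8 treated lung counts against 517 with DMSO put the lung level at 6.57% of DMSO, with a 95% counting interval of 2.82% to 13%. The USP9X difference was not called without NCI-H520 or with libraries thinned to the smallest.

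ADGRG1, also known as GPR56, an adhesion G protein-coupled receptor (chr16:57610652-57665580, plus strand), fell in both tissues, and was below DMSO in every treated lung library. NCI-H1650 read 280 and 311 CPM with DMSO, then 77.7 and 40.2 CPM, and NCI-H520 290 and 268 CPM, then 59.0 and 55.2 CPM. Hs 936.T read 230 and 269 CPM, then 331 and 116 CPM, and A375 90.4 and 88.8 CPM, then 55.1 and 40.0 CPM. The lung changes were -1.91 to -2.83 and lay below all melanoma changes, of which the one in Hs 936.T at 0.3 µM was positive. The difference was -1.94 ± 0.26 (adjusted p = 1.6e-05, edgeR's quasi-likelihood test, Benjamini-Hochberg adjustment), and lay between -1.34 and -2.23 when single libraries were left out.

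FAT1, an atypical cadherin, and PPDPF, a small protein named for pancreatic progenitor differentiation, rose in melanoma and were not called in lung. FAT1 in A375 went from 203 and 230 CPM to 726 and 589 CPM, and in Hs 936.T from 87.6 and 79.6 CPM to 230 and 157 CPM. In NCI-H1650 FAT1 read 213 and 193 CPM with DMSO and 295 and 241 CPM with RocA, and in NCI-H520 51.6 and 36.3 CPM, then 34.7 and 22.7 CPM. The treated values were above DMSO in 1 lung line and below it in the other, and all lung changes lay below the melanoma changes. FAT1 differed by -1.32 ± 0.22 and PPDPF by -1.29 ± 0.23, with a melanoma response of 1.43 for each and lung responses of 0.12 ± 0.20 and 0.14 ± 0.18. PPDPF was read at 519 and 594 CPM in NCI-H1650 with DMSO against 41.8 to 86.6 CPM in the other lines, and went to 730 and 294 CPM there.

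**Figure D2:**
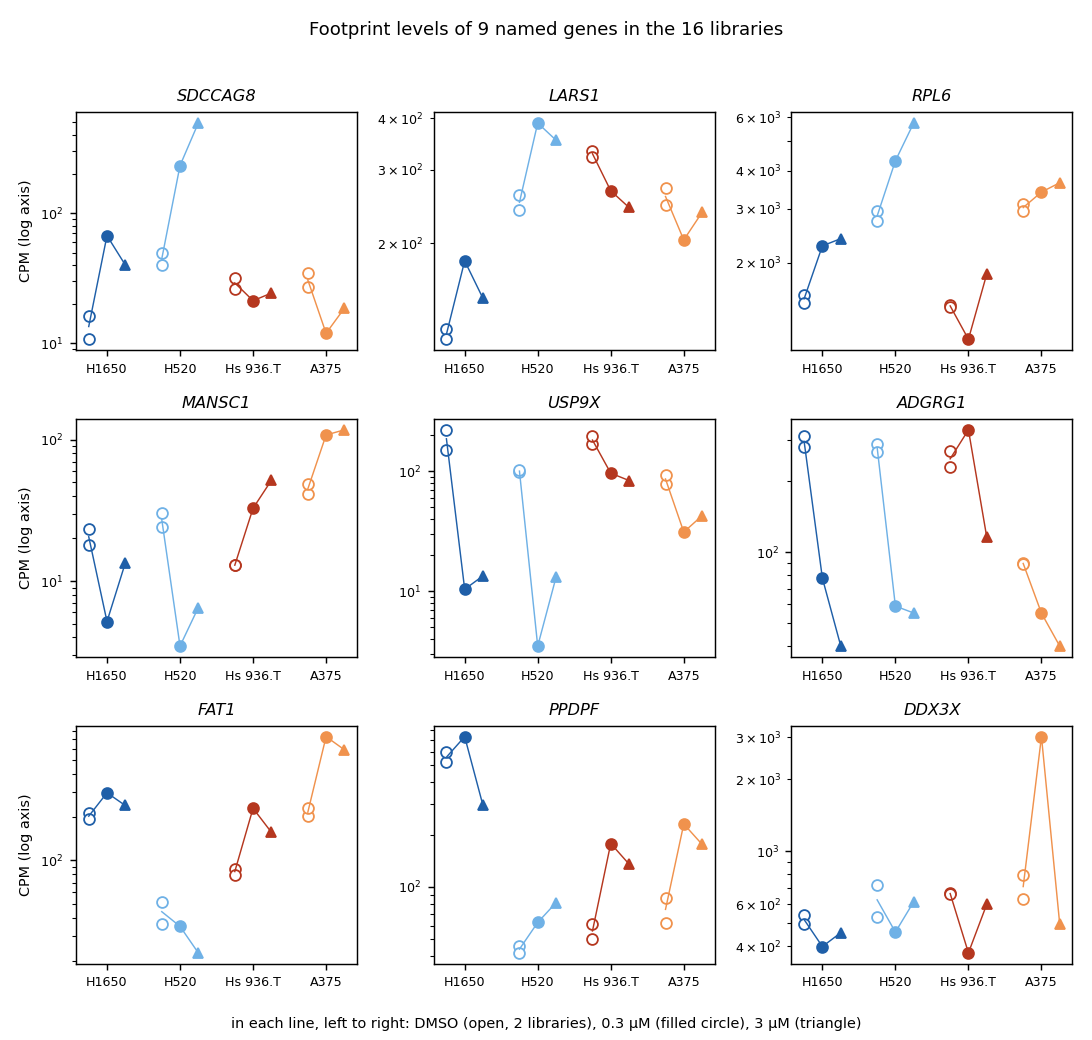
CPM (log axis) of 9 genes in the 16 libraries, grouped by line, with DMSO as open circles, 0.3 µM as a filled circle and 3 µM as a triangle. Lines join each DMSO mean to the treated values. SDCCAG8 rises to 494 CPM in NCI-H520, MANSC1 moves in opposite directions in lung and melanoma, and DDX3X is set apart by A375 at 0.3 µM, at 3018 CPM.

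Because RocA acts through eIF4A on purine-rich RNA, the longest run of purines in the annotated 5′ leader is shown for 3 genes higher in lung (LARS1, SDCCAG8 and RPL6) and 3 lower (USP9X, ADGRG1 and HLA-E). They are printed 5′ to 3′ from the GENCODE 29 transcripts (GRCh38, the same assembly as hg38) with the run in capitals and the bases around it in lower case, and each was chosen after its response was known.
LARS1: atccccGAGAGGGAGGGGAAAGGtaacca
SDCCAG8: ttgttctcGGAAGGGAGAAAGctggacat
RPL6: tatagaccGGAAGccgggacc
USP9X: gcctGAGGGGAGAAGGGGAAGAGGGccgt
ADGRG1: AGGGAGGAGGGAGGAGcccagct
HLA-E: ccggactcAAGAAGttctcagg
LARS1 (chr5:146182555-146182583, minus strand) has a run of 17 bases, and 4.35% of the leaders of tested genes hold one as long. USP9X (chrX:41085832-41085860, plus strand) has 21 bases, a length reached by 1.56%, and ADGRG1 (chr16:57628555-57628577, plus strand) has 16, reached by 5.69%. SDCCAG8 (chr1:243256105-243256133, plus strand) has 13 bases, reached by 12%. The runs of RPL6 (chr12:112409612-112409632, minus strand), 5 bases, and HLA-E (chr6:30489493-30489514, plus strand), 6 bases, are as common as 87.3% and 75.3% of leaders. Long runs thus stood in genes that differed in either direction. Over the 17 genes higher in lung the median longest run was 8 bases, as it was over the 59 of 65 lower genes with an annotated leader and over the 5883 tested genes with one. The median leader was 138 bases in the higher genes, 217 in the lower and 167 over all, and the median share of purines 50.4%, 52.5% and 51.3%. These are descriptions of annotated leaders, and which leader each line uses was not measured.

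DNAJC13, an endosomal co-chaperone, MAGED2, a member of the MAGE family, and HBP1, a transcriptional repressor of the HMG-box family, each lost the call in 1 of the 16 fits. DNAJC13 (chr3:132417526-132539032, plus strand) fell from 110 and 76.6 CPM to 10.4 and 0 CPM in NCI-H1650 and from 74.1 and 87.4 to 3.47 and 6.50 CPM in NCI-H520, while Hs 936.T went from 133 and 142 to 71.1 and 43.3 CPM and A375 from 47.0 and 49.1 to 19.2 and 24.0 CPM. The 4 treated lung libraries fell further than the 4 melanoma libraries. DNAJC13 held only 5 treated lung counts against 319 with DMSO, a level of 6.65% with a 95% counting interval of 2.14% to 15.7%. Its difference of -2.67 ± 0.54 was -2.36 without NCI-H520 at 0.3 µM, where the call ended. MAGED2 differed by -2.43 ± 0.47, with a carried share of 21%, and was -2.21 without NCI-H1650 at 0.3 µM. It held 7 treated lung counts against 425 with DMSO, a level of 6.99% with a 95% counting interval of 2.79% to 14.5%. HBP1 fell in lung (-0.96 ± 0.30) and rose in melanoma by 0.58 ± 0.18, and its difference of -1.54 ± 0.34 was -1.59 without NCI-H1650 at 0.3 µM, where it was not called.

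A further pair of genes moved in opposite directions by smaller amounts. MT1G, a zinc- and copper-binding metallothionein that is near-identical to its neighbours in the gene cluster, fell in lung (-0.56 ± 0.21) and rose in melanoma by 0.62 ± 0.12, a difference of -1.19 ± 0.24 that was -1.04 without NCI-H1650 at 0.3 µM, where the call ended. PPA1, a cytosolic pyrophosphatase, rose in lung by 0.26 ± 0.11 and fell in melanoma (-0.36 ± 0.11). Its difference of 0.62 ± 0.15 was called in 7 of the 16 fits.

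The other named genes higher in lung differed by about 2-fold at most. PTMS, the nuclear protein parathymosin, rose in both tissues, by 1.85 ± 0.25 in lung and 0.77 ± 0.15 in melanoma. FANCD2, of the Fanconi anaemia repair pathway, rose by 1.17 ± 0.17 and 0.35 ± 0.14, and SSBP1, which binds mitochondrial DNA, rose in lung by 0.56 ± 0.14 and was not called in melanoma. HELLS, a chromatin remodeller, fell in melanoma (-1.18 ± 0.15) and was not called in lung (-0.24). Their differences were 1.09 ± 0.28, 0.83 ± 0.21, 0.66 ± 0.17 and 0.94 ± 0.24 in the same order, and these calls held in 6, 6, 7 and 10 of the 16 fits.

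Several genes lower in lung had few counts after treatment. MMP14, a membrane-bound matrix protease, differed by -3.25 ± 0.83, but held only 2 counts over the treated lung libraries against 115 with DMSO, a level of 7.38% with a 95% counting interval of 0.883% to 27.3%. Its carried share was 80.5%, and the call held in 4 of the 16 fits. FMN1, a formin, differed by -2.32 ± 0.53, with a carried share of 99.8%, and ARHGAP35, a GTPase-activating protein, by -2.52 ± 0.62. PPP6R1, a subunit of protein phosphatase 6, fell in lung (-1.98 ± 0.39) against -0.00 ± 0.19 in melanoma, where the lines went apart: the changes were 0.46 and 0.50 in Hs 936.T and -0.65 and -1.20 in A375, a called difference of 1.38 (adjusted p = 0.024, edgeR's quasi-likelihood test, Benjamini-Hochberg adjustment). RFX7, a transcription factor, NCOA6, a coactivator, MYCBP2, an E3 ligase, and CHPT1, a choline phosphotransferase, differed by -2.07, -2.02, -1.79 and -1.54, with calls in 7, 7, 6 and 6 of the 16 fits.

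Of the 82 genes, 9 had a carried share over 20%, 8 of them lower in lung, where 4.83% of tested genes (291) did. The part of such reads in these results was not tested. With the genes over 3 times higher in Hs 936.T than in NCI-H520 left out of the fit, 71 of the 73 remaining genes were still called. The counts of those 73 genes were unchanged and no reads were subtracted, so this fit cannot show what carried reads did to their calls.

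**Figure D3:**
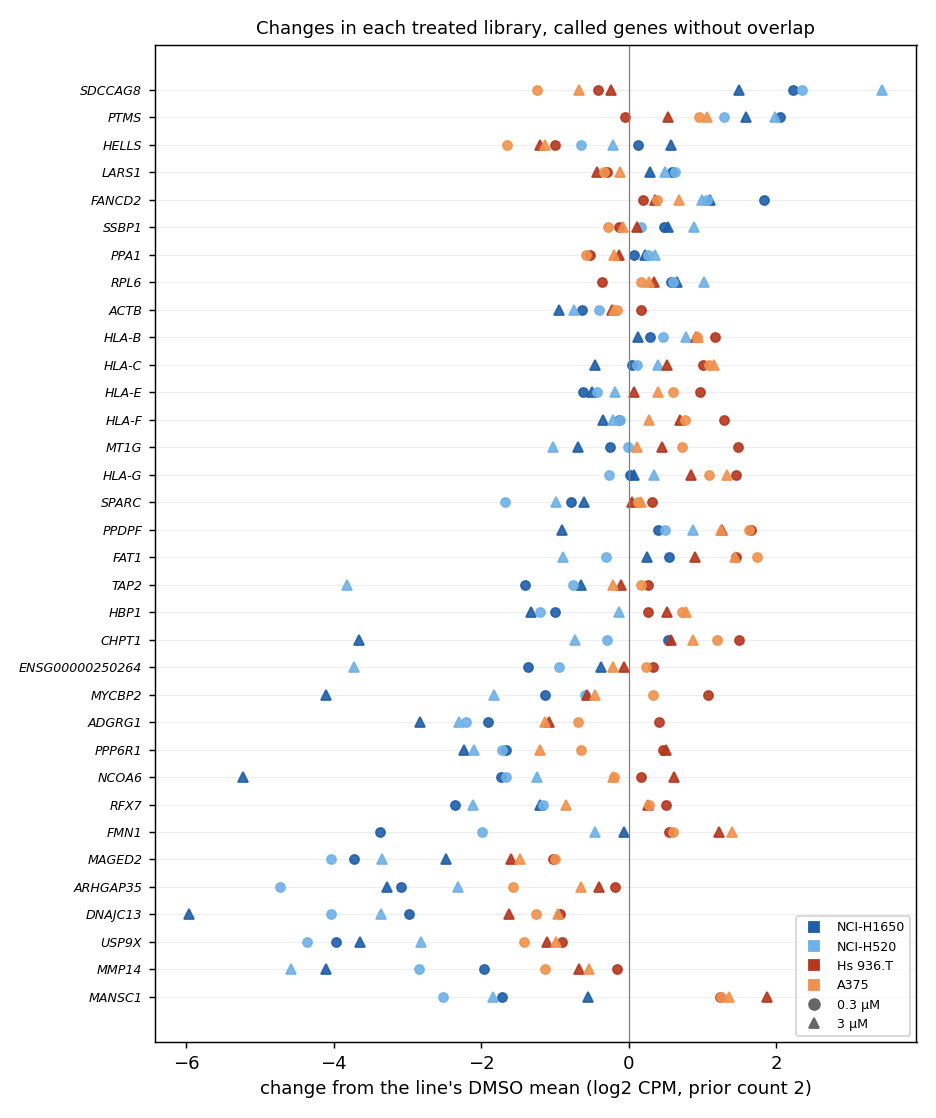
Log2 change from the DMSO mean of the same line (prior count 2) in each of the 8 treated libraries for 34 genes, in order of their difference. Colours mark lines and shapes doses. Lung changes lie on 1 side of all melanoma changes by selection, at 1.5 to 3.43 against -1.25 to -0.24 for SDCCAG8.

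The class I antigen-presentation genes were grouped after their values were seen. Class I heavy chains carry peptides from inside the cell to the surface, together with the light chain B2M. The 5 heavy chains described here, HLA-B, HLA-C, HLA-E, HLA-F and HLA-G, rose in melanoma, by 0.55 to 1.22 on the log2 scale. In lung HLA-B rose by 0.39 ± 0.13, HLA-E fell (-0.52 ± 0.16), and HLA-C, HLA-F and HLA-G were not called. The differences of these 5 genes were called lower in lung, from -0.60 to -1.19 with a median of -1.07. Of all genes tested 1.08% were called lower, and their median was -0.05.

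HLA-G (chr6:29826967-29831125, plus strand) and HLA-C (chr6:31268749-31272105, minus strand) kept the call in all 16 fits. HLA-C went from 410 and 434 CPM to 846 and 604 CPM in Hs 936.T, and from 405 and 440 CPM to 896 and 940 CPM in A375. In NCI-H520 it read 445 CPM in both DMSO libraries, then 483 and 588 CPM, and in NCI-H1650 1664 and 2106 CPM, then 1922 and 1366 CPM. Every treated melanoma library was above its DMSO libraries, and the lung changes stayed below all melanoma changes. HLA-C differed by -0.92 ± 0.17 (adjusted p = 0.0018, edgeR's quasi-likelihood test, Benjamini-Hochberg adjustment) and HLA-G by -1.19 ± 0.20 (adjusted p = 0.00051, same test).

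HLA-E (chr6:30489467-30494205, plus strand) differed by -1.07 ± 0.20 and ended without NCI-H1650 at 0.3 µM (-0.84). HLA-F differed by -1.07 ± 0.24 and ended without NCI-H1650 at 0.3 µM (-0.96) or Hs 936.T at 0.3 µM (-0.81). HLA-B differed by -0.60 ± 0.16 and held in 5 of the 16 fits. The 5 genes are similar in sequence and their reads may be shared, so they are not taken as independent observations.

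Among the partners of the heavy chains, 1 of 9 tested genes of peptide supply and loading was called, where 1.36% of all genes tested were. B2M rose in both tissues, by 0.55 ± 0.11 in lung and 0.74 ± 0.10 in melanoma, with a difference of -0.20 ± 0.15 that was not called. TAP2, a subunit of the peptide transporter, fell in lung (-1.50 ± 0.29) against 0.02 ± 0.15 in melanoma and was called (-1.52 ± 0.33). That call ended without NCI-H1650 at 0.3 µM (-1.40) or NCI-H520 at 3 µM (-1.20), the latter being the library in which TAP2 stood at 3.25 CPM. ENSG00000250264, which overlaps TAP2 and shares its reads, differed by -1.54 ± 0.34 and is not a separate result. TAP1 (-1.06 ± 0.45), TAPBP (-0.68 ± 0.23), PSMB8 (-0.47 ± 0.19), ERAP1, CALR, PDIA3 and PSMB9 were not called. The median difference over the 9 genes was -0.38.

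**Figure D4:**
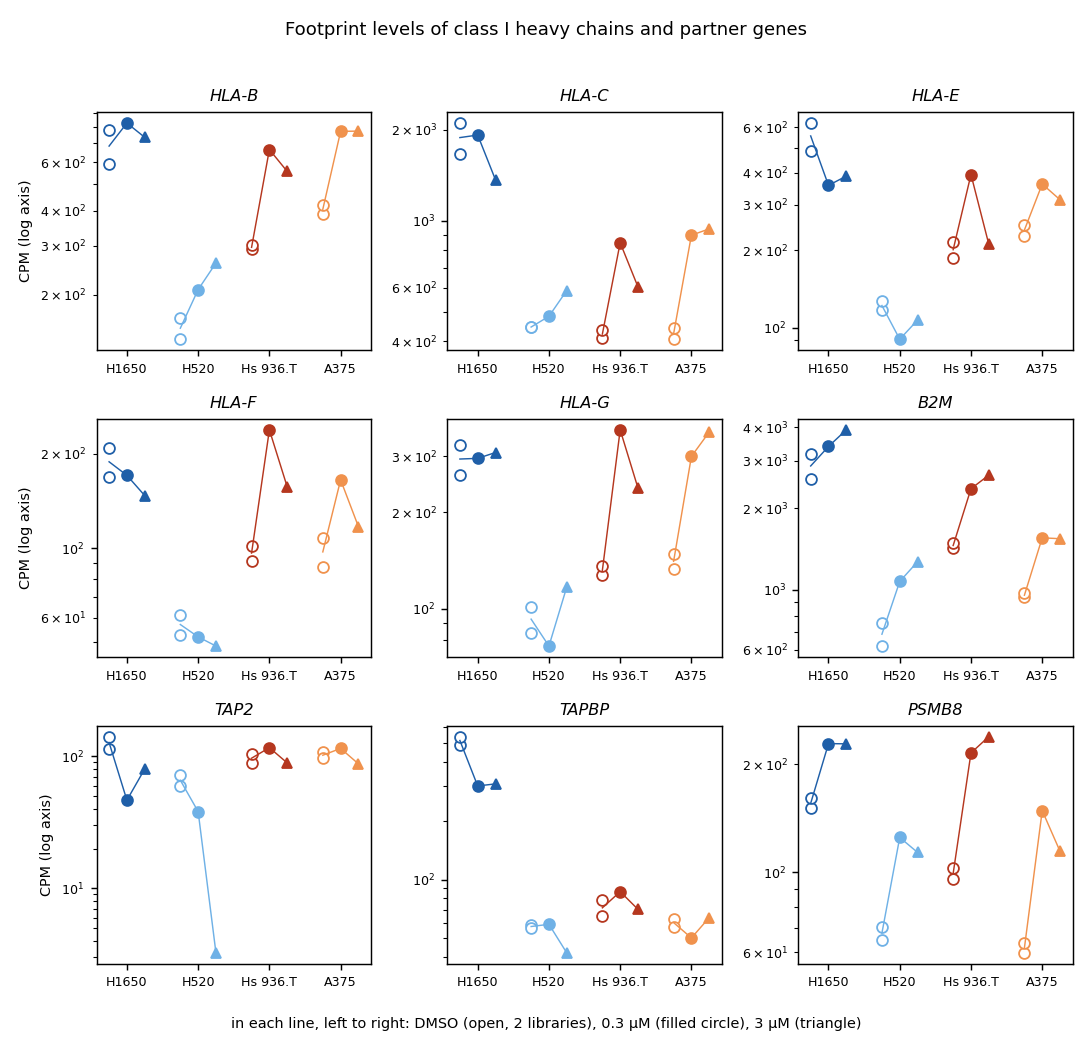
CPM (log axis) of 5 class I heavy chains, B2M, TAP2, TAPBP and PSMB8 in the 16 libraries, with DMSO as open circles, 0.3 µM as a filled circle and 3 µM as a triangle. The heavy chains rise in Hs 936.T and A375, HLA-C to 846 and 896 CPM at 0.3 µM, while the lung changes of HLA-E are all negative, at -0.62 to -0.18.

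The targets of RocA themselves did not differ by a call. EIF4A1, the main eIF4A, rose in both tissues, by 0.41 ± 0.10 in lung and 0.33 ± 0.10 in melanoma, and its paralog EIF4A2 rose by 1.25 ± 0.12 and 1.39 ± 0.11. The differences were 0.08 ± 0.14 for EIF4A1 and -0.14 ± 0.16 for EIF4A2, which leaves small differences in either direction undetectable at this spread. DDX3X gave -0.68 ± 0.76 (adjusted p = 0.75, edgeR's quasi-likelihood test with Benjamini-Hochberg adjustment). Its value in A375 at 0.3 µM was 3018 CPM, where the other libraries read 375 to 792 CPM, and without that library the difference was 0.36 (adjusted p = 0.24), with the sign reversed. Over all fits that left out a library, DDX3X lay between -1.15 and 0.36. Of 12 tested genes of the eIF4A, DDX3 and cap-binding group, none was called, with a median of 0.11 that was -0.15 without NCI-H520, and of 29 initiation factors none was called, with a median of 0.09.

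In the translation machinery few genes were called, as over all genes tested, of which 1.36% were. Of 71 cytosolic ribosomal proteins tested, RPL6 and RPL30 were called higher in lung and RPLP0 lower, and the median difference was 0.11 against -0.05 for all genes, but -0.15 without NCI-H520. RPL6, of the large subunit, rose in lung by 0.73 ± 0.10 and was 0.11 ± 0.10 in melanoma, a difference of 0.62 ± 0.14 held in 11 of 16 fits. RPL30 rose in both, by 1.16 ± 0.13 and 0.49 ± 0.12, and RPLP0, of the ribosomal stalk, fell in lung (-0.55 ± 0.12) and was 0.12 ± 0.10 in melanoma. Ribosomal proteins and ACTB have near-identical copies elsewhere in the genome, so their reads may be shared and their values are uncertain. Of 20 aminoacyl-tRNA synthetases 1, LARS1, was called, with a median of 0.21, and of 40 spliceosome and SR genes 1 was called, SNRPG, with a median of 0.21. EDF1, which acts at collided ribosomes, rose in both tissues, with a difference of 0.64 ± 0.16. The calls of RPLP0, RPL30, SNRPG and EDF1 held in 13, 6, 8 and 6 of the 16 fits.

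In the ERK and proto-oncogene lists the median differences were negative, to an extent that depended on Hs 936.T. In them 1 member was called, where 1.36% of all genes tested were. Among 19 tested genes of the ERK pathway, which carries growth signals from the cell surface to the nucleus, 13 fell in lung and 9 in melanoma, where 32.9% and 35.6% of all genes tested did. The median difference was -0.71, and -0.34 without Hs 936.T. SHC1, an adaptor for growth factor receptors, was called at -1.70 ± 0.44, held in 7 of the 16 fits and stood at 0.55 with libraries thinned. MET (-1.24 ± 0.43) and MAP2K1 (-0.73 ± 0.38) were not called, and are named after their values were seen, as is GAPDH below. Of 20 proto-oncogene and survival regulators, 13 fell in lung and 14 in melanoma, against the same shares of all genes, with a median of -0.52 and no call. That median was -0.070 without Hs 936.T. Of 20 glycolysis genes none was called and the median was -0.31, and GAPDH differed by -0.57 ± 0.16 (adjusted p = 0.053, edgeR's quasi-likelihood test with Benjamini-Hochberg adjustment). Of 16 extracellular matrix and integrin genes, SPARC, a matrix-associated glycoprotein, was called, at -1.25 ± 0.31, with a carried share of 100%. Its call held in 5 of the 16 fits, and the difference was -0.83 without NCI-H520 DMSO replicate 2. ACTB, of the actin list, fell in lung (-0.68 ± 0.10) and was -0.10 ± 0.10 in melanoma, a call held in 11 of the 16 fits. The lists and their names were written with earlier results of these data known, and the medians are descriptions with no test.

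**Figure D5:**
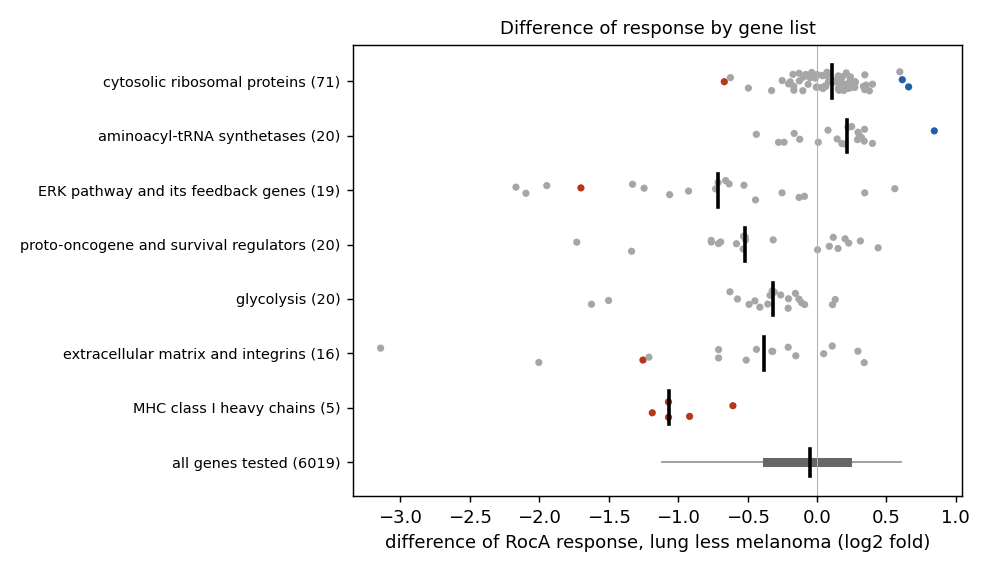
Difference of RocA response, lung less melanoma (log2 fold), by gene list, with 1 dot per tested gene, blue for called higher in lung, red for called lower and grey for not called. Black ticks are medians, and for all genes the bar is the quartiles and the line the 5th to 95th percentile. The 5 class I heavy chains lie wholly below 0, with a median of -1.07.

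The difference was tested at each dose. At 0.3 µM, 24 genes were called (0.399%), 4 higher (0.0665%) and 20 lower (0.332%), and 22 of them were among the 82. At 3 µM, 4 were called (0.0665%), 1 higher (0.0166%) and 3 lower (0.0498%). They were SDCCAG8, MANSC1, TUBB6, a tubulin, and ENSG00000251357, and all 4 were among the 82. TUBB6 was named after its values were seen. ENSG00000251357 (chr22:23862188-23895223, plus strand) has no symbol and overlaps annotated genes, SLC2A11 among them. It differed by -1.01 ± 0.15 over both doses, and which gene its reads came from was not tested. It was called in all 16 fits although the tissues' changes overlapped. A test of whether the difference itself changed with dose called 0 genes by edgeR, with 263 at an unadjusted p under 0.05, and all 82 genes had the same sign at both doses. The counts at the doses are therefore not shown to differ, and the smallest library, NCI-H1650 at 3 µM, belongs to the higher dose.

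Responses also differed between lines of the same tissue. Between NCI-H1650 and NCI-H520, 31 genes were called (0.515%), 15 higher in NCI-H1650 (0.249%) and 16 lower (0.266%). Between Hs 936.T and A375, 80 were called (1.33%), 52 higher in Hs 936.T (0.864%) and 28 lower (0.465%). Among these, RANBP2 with the RGPD genes, the POTE genes, and BLOC1S1 with ENSG00000258311 had similar changes within each set. Their reads may be shared, so the 80 are not all separate observations. Of the 82 genes, 2 were also called between the lung lines and 2 between the melanoma lines. The lung pair, TUBB3 and ENSG00000198211, had near-equal changes (0.78 and 0.77 in NCI-H1650 at 0.3 µM). Their reads may be shared, so they are not separate results. The tests differ in design and in the number of libraries behind each contrast, so the counts are given side by side.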

How the data were processed

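Ribosome footprints were counted in 16 libraries, grouped by title. Per the submitters' processing notes, CASAVA 1.8, Bowtie2 2.1.0, TopHat2 2.0.9 and hg38 were used. The counting step and annotation release were not given in the sources used here. The deposited files hold raw counts for 182398 transcript entries, of which 93916 are coding. Entries carry no gene names, so genes were named by matching coding lengths of neighbouring entries (codons less 10) to GENCODE 29: 91405 coding entries (97.3%) were aligned and 17286 genes named. Altered decoy genes were named at 0.16%, and 0.51% of genes held a wrong entry when naming was tested on simulated data. After leaving out Y-linked genes and keeping 1 entry per symbol, the highest by count, 17244 remained.

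Counts were fitted in R 4.3.3 with edgeR 4.0.16 (TMM scaling, robust quasi-likelihood, two-sided, Benjamini-Hochberg, calls at adjusted p under 0.05). Terms were cell line, a RocA response per tissue and 1 dose term, leaving 9 residual degrees of freedom. Genes needed filterByExpr at a minimum count of 10 and 10 CPM with DMSO in each line (6019 genes). CPM of single genes are TMM-scaled over tested genes, and changes use a prior count of 2. The epithelial sums, pigment percentages, carried shares and the 10 CPM filter use CPM that are TMM-scaled over all 17244 named genes. The DMSO libraries of a line differed by 1.52 to 2.70 in chi-square per degree of freedom, where counting error alone gives about 1. DESeq2 1.42.0, other scalings, filters, thinning, and leaving out libraries or lines were alternatives. On simulated counts, planted log2 differences of -2, -1, 1 and 2 were recovered for 78%, 50%, 66% and 98% of genes, and 3.31% of calls were false. Those libraries were drawn independently, with no differences in response between lines of a tissue. The percentages therefore do not give the recovery or the false share of the calls in the real data. Figures used matplotlib 3.10.9.

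Named genes were, among calls with at least 20 CPM on average, up to 15 in each direction whose 4 lung and 4 melanoma changes did not overlap, called genes with opposite responses, called members of the gene lists (up to 4 a list), EIF4A1, EIF4A2 and DDX3X, and the 5 calls in each direction with the smallest p at 200 CPM or more. Some genes that this rule selects are not reported here. Lists of class I genes were added after the values were seen. The members, lists and tests were chosen with earlier results of these data known. Lists with no tested gene (epithelial, squamous, alveolar, blood) are not reported as responses. Intervals cover counting error only.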

Additional observations from a re-analysis of the deposited data

Results flagged for a closer look

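Of 108 groups of 4 libraries, 4 had a library far from the other 3, where chance alone marks about 1 in 20 independent groups. Most groups held the changes of 1 gene in the treated libraries of a tissue. The rest held library totals, with DMSO or with RocA. The groups share libraries and are not independent. FANCD2 changed by 1.83 on the log2 scale in NCI-H1650 at 0.3 µM against 0.99 to 1.09 in the other treated lung libraries. NCOA6 changed by -5.24 in NCI-H1650 at 3 µM, where it had 0 counts, against -1.73 to -1.25. HLA-B rose by 1.17 in Hs 936.T at 0.3 µM, against 0.91 to 0.93 in the other treated melanoma libraries, and B2M by 0.87 in Hs 936.T at 3 µM, against 0.69 to 0.71.

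Responses that differed between tissues by the test of the difference itself numbered 17 higher and 65 lower in lung. Those that differed within a tissue numbered 31 between the lung lines and 80 between the melanoma lines, and in each count some entries may share reads. Pigment genes, which a lung line should lack, stood in the NCI-H520 DMSO libraries at 3.75% (replicate 1) and 8.30% (replicate 2) of their Hs 936.T level, against at most 0.503% in NCI-H1650.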

How the results depend on the processing

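All 82 calls kept their sign in every setting in which they were tested except without NCI-H520 (80 of 82) and with libraries thinned to 64291 counts (77 of 82), which was also the setting that left the fewest calls. Higher in lung, 17 genes became 27 with DESeq2, 41 with no filter on low counts, 2 with no dose term, 1 thinned, 37 without NCI-H1650, 4 without NCI-H520, 51 without A375, 4 without the 2 libraries labelled NCI-H521, and 10 without NCI-H1650 at 3 µM and NCI-H520 DMSO 2 together, an alternative chosen after seeing the data; without single libraries they ran from 4 to 70. Lower in lung, 65 became 27 at 50 CPM in each line, 103 unfiltered, 18 with no dose term, 6 thinned, 36 without NCI-H1650, 15 without NCI-H520, 33 without Hs 936.T, 186 without A375, 36 without the NCI-H521 label and 42 with the pair left out; without single libraries 27 to 141. The causes were not tested.

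At 0.3 µM, 4 higher became 1, 1, 2 and 61 without NCI-H1650, NCI-H520, Hs 936.T and A375 and 0 thinned, and 20 lower became 4, 0, 10 and 171, 35 with that dose alone and 5 thinned. At 3 µM, 1 higher became 9, 0, 2 and 2, and 3 with that dose alone, and 3 lower became 10, 1, 7 and 10, 5 with that dose alone and 0 thinned. Between the lung lines, 15 higher and 16 lower became 2 and 0 thinned, and 1 to 13 and 5 to 34 without single libraries. Between the melanoma lines, 52 and 28 became 1 and 0 thinned, and 9 to 101 and 10 to 62.

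Replicate numbers paired no lines (correlations of deviations -0.058 to 0.129 over 6 pairs of lines). With a replicate block, 10 genes were higher and 60 were called in all, 59 of them among the 82.

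Of 120 recomputed list medians, 110 stayed within the spread. Those that moved were, without NCI-H520, the eIF4A group -0.15, ribosomal proteins -0.15, DEAD and DEAH-box helicases -0.029 and proteasome -0.085; without A375, the helicases 0.22; without Hs 936.T, ERK -0.34, PI3K and mTOR 0.12 and proto-oncogenes -0.070; without NCI-H1650, extracellular matrix -0.73 and melanocyte genes -2.37.

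Signs that turned were NCOA6 (0.29) and SHC1 (0.55), both thinned, and, among genes not called, EIF4A1 without NCI-H520 at 3 µM (-0.020), NCI-H520 (-0.12) or the NCI-H521 label (-0.030), DDX3X without A375 at 0.3 µM (0.36) or A375 (0.25), B2M without NCI-H1650 (0.025), PDIA3 thinned (-0.084) or without Hs 936.T (-0.047), and PSMB9 without NCI-H1650 DMSO 2 (0.080) or NCI-H1650 (0.016). Without single libraries, EIF4A1 ran from -0.020 to 0.18, DDX3X from -1.15 to 0.36 and PSMB9 from -0.43 to 0.080.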

Other observations

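Some genes outside the naming rule that were called lower in lung are named here after their values were seen. TOP2B, a DNA topoisomerase, fell in both tissues (-4.79 ± 0.42 in lung and -1.56 ± 0.17 in melanoma). Its response also differed by a call between Hs 936.T and A375 (1.69). The tissues overlapped, with a change of -3.52 in A375 at 3 µM against -3.37 in NCI-H1650 at 3 µM. IL6ST, the shared receptor chain of the interleukin 6 family, fell (-4.92 ± 0.78 and -1.29 ± 0.22). CNOT1, the scaffold of the main deadenylase complex, fell (-2.69 ± 0.20 and -1.48 ± 0.18), and HUWE1, a large ubiquitin ligase, fell in lung (-1.26 ± 0.21) and was 0.00 ± 0.13 in melanoma. KMT2D, a histone methyltransferase, rose in both, by 0.53 ± 0.24 in lung and 1.77 ± 0.14 in melanoma. For these genes neither counting intervals nor fits with a library left out are given, so the stability of their calls was not shown.

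Within the lung lines, 8 of the 16 genes with a lower response in NCI-H1650 than in NCI-H520 were ribosomal proteins, as were 0 of the 15 with a higher response and 71 of the 6019 genes tested, of which 0.266% were called lower. The 16 calls ran from 5 to 34 when single libraries were left out and were 0 with libraries thinned. RPLP1 differed by -1.50 and RPL28 by -1.10. PABPC1, the poly(A)-binding protein, differed by -2.08, with changes of -4.12 and -2.64 at 0.3 and 3 µM in NCI-H1650 against -1.45 and -1.59 in NCI-H520. Within the melanoma lines, 3 of 20 glycolysis genes had a more positive response in Hs 936.T than in A375, where 0.864% of all genes tested did (52 of 6019), among them the glucose transporter SLC2A1 (4.10) and HK2 (2.07). Those 52 calls ran from 9 to 101 when single libraries were left out, and 1 was made with libraries thinned.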
